A study of Mus musculus with 6 samples.

Results

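The genes described here are 10 Eph receptors and ephrins, 7 receptors (Epha1, Epha2, Epha4, Ephb2, Ephb3, Ephb4 and Ephb6) and 3 ligands (Efna1, Efnb1 and Efnb2), chosen by name with earlier results of these data known. They are 10 of the 15973 protein-coding genes in the deposited comparison and 10 of the 22 genes of the mouse Eph and ephrin family. RNA-Seq was performed on 4T1-T cells, a clone of the 4T1 mouse mammary carcinoma line that is used as a model of vasculogenic mimicry (VM), the formation by tumor cells of perfused channels that resemble vessels. All cells were serum-starved overnight in Opti-Mem with BSA, given 10 ug/mL acetylated low-density lipoprotein (acLDL) labelled with Alexa-488 for 4 h, returned to complete RPMI medium with FBS for 1 h and sorted by fluorescence. The acLDL-high group is the 25% of cells with the most uptake and the acLDL-low group the 25% with the least, with 3 libraries each. The 2 groups therefore share the clone, the medium and the acLDL treatment, and differ in the gate of the sort. The sort was done on 3 occasions, so each acLDL-high library has an acLDL-low partner with the same replicate number. Uptake of acLDL is a classical property of endothelial cells and macrophages, and the comparison asks which transcripts go with it in tumor cells.

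Eph receptors are the largest family of receptor tyrosine kinases and bind ephrins on neighboring cells. Ephrin-As are tethered to the membrane by a lipid anchor and mostly bind EphA receptors, whereas ephrin-Bs span the membrane and mostly bind EphB receptors, with EphA4 binding both classes. Binding signals forward into the cell with the receptor and in reverse into the cell with the ephrin, through adaptors, cytoplasmic kinases, PDZ proteins and proteases, and controls adhesion, repulsion and tissue boundaries. In vessels, ephrin-B2 marks arteries and its receptor EphB4 marks veins, and in carcinoma cells EphA2 with its ligand ephrin-A1 has been tied to VM.

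The 250 bases upstream of the RefSeq start are shown for 2 genes that were higher in acLDL-high cells, Efnb2 and Epha1, and for Ephb4, the main receptor of ephrin-B2, whose CPM was lower in acLDL-high cells in each pair without passing the test. They were read on GRCm38.p6 in the direction of transcription at chr8:8661243-8661492 for Efnb2 (minus strand), chr6:42373269-42373518 for Epha1 (minus strand) and chr5:137349859-137350108 for Ephb4 (plus strand). Capitals mark GC boxes (GGGCGG, or CCGCCC on the other strand) and CCAAT boxes (CCAAT, or ATTGG).
Efnb2: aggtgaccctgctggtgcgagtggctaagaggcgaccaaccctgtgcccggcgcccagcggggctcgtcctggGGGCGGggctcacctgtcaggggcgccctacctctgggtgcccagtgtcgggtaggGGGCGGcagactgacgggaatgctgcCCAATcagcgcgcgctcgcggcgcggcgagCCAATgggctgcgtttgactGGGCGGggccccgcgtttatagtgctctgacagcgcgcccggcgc
Epha1: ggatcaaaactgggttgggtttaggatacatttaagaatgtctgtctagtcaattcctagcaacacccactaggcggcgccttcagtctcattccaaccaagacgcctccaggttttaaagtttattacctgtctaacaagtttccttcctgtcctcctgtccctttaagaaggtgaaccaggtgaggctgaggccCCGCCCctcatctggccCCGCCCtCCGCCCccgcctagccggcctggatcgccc
Ephb4: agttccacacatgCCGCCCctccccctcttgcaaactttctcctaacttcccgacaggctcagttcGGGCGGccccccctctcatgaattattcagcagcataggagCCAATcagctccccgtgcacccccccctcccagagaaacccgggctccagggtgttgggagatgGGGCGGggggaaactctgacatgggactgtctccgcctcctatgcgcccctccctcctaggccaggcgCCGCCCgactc

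The Efnb2 window held 3 GC boxes and 2 CCAAT boxes, the latter ending 91 and 61 bases before the start. The Epha1 window held 3 GC boxes, all within the last 54 bases, and no CCAAT box. The Ephb4 window held 4 GC boxes and 1 CCAAT box. All 10 genes had a RefSeq window, and a GC box was found in 8 of the 10 against 32.7% of 32851 mouse promoter windows of the same length, a CCAAT box in 5 against 33.8%, ACGTG, the core of the hypoxia response element, in 3 against 16.6%, and TGGGAA, bound by RBPJ, in 2 against 21.6%. None of the 10 windows held the forkhead motif GTAAACA, the AP-1 motif TGANTCA, the TCF/LEF motif CTTTGAT or the E-box CACGTG, which were found in 3.17%, 6.75%, 3.21% and 6.02% of all windows. Both strands were searched, and CACGTG contains ACGTG. GC content was 72.0% for Efnb2, 54.4% for Epha1 and 64.0% for Ephb4, with a median of 52.4% over all windows. All 10 windows lay above that median, at 54.4% to 76.8%. The motif shares over all windows were not matched for GC content. For Efna1 no window is shown, because its RefSeq start lies 191 bases inside the gene as annotated by GENCODE.

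The 6 libraries held between 70263372 and 94216786 counts, and 3 counts, the floor used here, were at most 0.0429 CPM. CPM is the count of a gene at a common library size, scaled by TMM, and fold changes are log2 ratios of acLDL-high over acLDL-low from edgeR, with the occasion as a block, adjusted over 12572 protein-coding genes. All 10 genes passed the count filter. Epha1 and Efnb2 were higher and Efna1 was lower in acLDL-high cells at an adjusted p under 0.05, so 3 of 10 passed, against 4.75% of all genes tested, or 5.53% of the 9211 genes with an average log2 CPM of at least 3. By direction, 2 of 10 were higher, against 3.43% of all genes, and 1 of 10 was lower, against 1.32%. At an unadjusted p under 0.05 there were 7 of 10, against 19.4%. Without the block on occasion, none of the 10 passed the adjusted threshold in edgeR and 1 had an unadjusted p under 0.05. In 3 genes, Epha1, Ephb3 and Efnb2, the groups did not overlap, against 2.86% of all genes. The direction was the same in all 3 pairs for 8 genes, 4 up and 4 down, against 40.4%. The 19.4%, 2.86% and 40.4% were taken over all genes tested, without the restriction on average log2 CPM. The median log2 fold change of the 10 was -0.01, beside 0.00 for all genes.

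**Figure D1:**
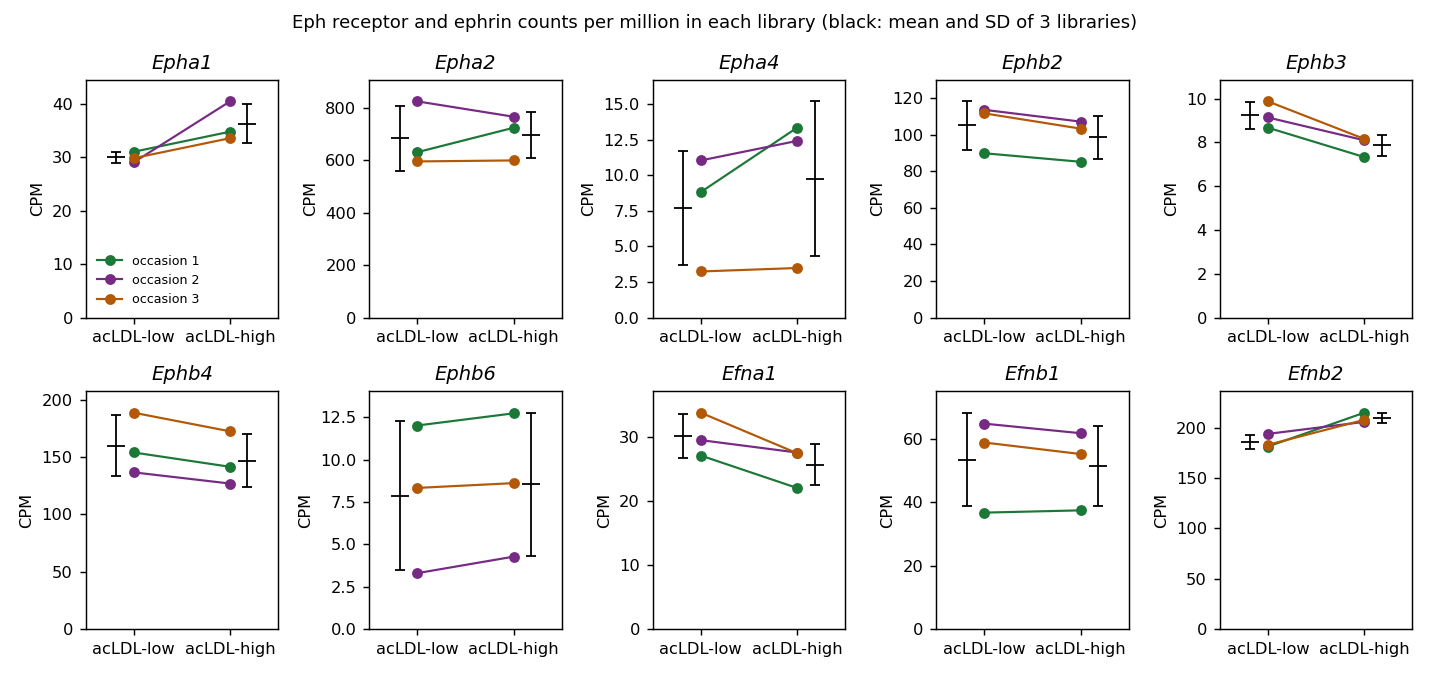
CPM (vertical axis from 0) of each gene in acLDL-low and acLDL-high libraries, with lines joining the libraries of 1 occasion and black marks for the mean and SD of 3 libraries. The lines of Efnb2, Epha1, Epha4 and Ephb6 slope up and those of Efna1, Ephb2, Ephb3 and Ephb4 slope down on every occasion. Relative to their level, the occasions lie farthest apart for Epha4 and Ephb6.

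Of the ligands, Efnb2 (ENSMUSG00000001300, chr8:8617434-8661242, minus strand), which encodes ephrin-B2, had the most even level of the 10 genes. Its CPM was 181, 194 and 183 in acLDL-low replicates 1 to 3 and 215, 206 and 208 in their acLDL-high partners. Every acLDL-high library lay above every acLDL-low library, with means of 186 ± 6.82 and 209 ± 4.80 (SD, n = 3 each). The rise was 12.6%, a log2 fold change of 0.17 ± 0.04 (SE), with an edgeR adjusted p of 0.0441, and the 3 pairs differed by 0.25, 0.09 and 0.18. The call was lost without replicate 1 (0.14, adjusted p = 0.164) and without replicate 3 (0.17, adjusted p = 0.223), each of which leaves 2 pairs.

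Efna1 (ENSMUSG00000027954, chr3:89271733-89281142, minus strand) encodes ephrin-A1, the ligand that binds EphA2 and EphA1. Its CPM was 27.1, 29.5 and 33.8 in acLDL-low replicates 1 to 3 and 22.0, 27.5 and 27.4 in acLDL-high cells. Each acLDL-high library was below its partner, although acLDL-high replicates 2 and 3 exceeded acLDL-low replicate 1 slightly, so the groups overlapped. The mean was 30.1 ± 3.39 in acLDL-low and 25.7 ± 3.17 in acLDL-high cells (SD, n = 3 each). Efna1 fell by 0.23 ± 0.06 (SE) on the log2 scale, a change of -14.9%, with an edgeR adjusted p of 0.0361. The adjusted p was 0.0906 without replicate 1, 0.293 without replicate 3 and 0.0725 with DESeq2.

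Efnb1 (ENSMUSG00000031217, chrX:99136130-99148991, plus strand), encoding ephrin-B1, a ligand of EphB2 and EphB3, had a CPM of 36.7, 64.8 and 58.8 in acLDL-low and 37.4, 61.7 and 55.2 in acLDL-high cells. Replicate 1 was the lowest in both groups, and the groups overlapped over almost their whole range. The log2 fold change was -0.05 (95% CI -0.14 to 0.05, edgeR adjusted p = 0.637).

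Of the EphA receptors, Epha1 (ENSMUSG00000029859, chr6:42358487-42373268, minus strand) was the one that passed the test. Its CPM was 31.0, 29.0 and 29.8 in acLDL-low replicates 1 to 3 and 34.8, 40.4 and 33.6 in acLDL-high cells. All acLDL-high libraries lay above all acLDL-low libraries, and acLDL-high replicate 2 stood highest. The rise was 20.7%, a log2 fold change of 0.27 ± 0.06 (SE, edgeR adjusted p = 0.0287), with pair differences of 0.17, 0.48 and 0.17. Without replicate 2 the log2 fold change was 0.17 (adjusted p = 0.138) and without replicate 3 it was 0.32 (adjusted p = 0.12).

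The exons of Epha1 share 236 of 3928 bases (6.01%) with Zyx on the opposite strand, which encodes the adhesion protein zyxin and was counted at 380 to 538 CPM. The strand setting of the counting was not stated, so it is not known how reads of this stretch were assigned. Zyx had a log2 fold change of 0.14 (edgeR adjusted p = 0.183), with pair differences of 0.30, 0.00 and 0.11. The part of such reads in the Epha1 result was not tested.

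Epha2 (ENSMUSG00000006445, chr4:141301240-141329384, plus strand), the receptor of ephrin-A1, had by far the highest level. Its CPM was 631, 825 and 596 in acLDL-low and 725, 767 and 599.9 in acLDL-high cells. The acLDL-high library was higher on occasion 1, lower on occasion 2 and almost equal on occasion 3. The log2 fold change was 0.03 (95% CI -0.09 to 0.15, edgeR adjusted p = 0.798), and without replicate 1 it turned to -0.05 (adjusted p = 0.758).

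Epha4 (ENSMUSG00000026235, chr1:77367185-77515088, minus strand), which binds ephrins of both classes, had a CPM of 8.83, 11.1 and 3.24 in acLDL-low and 13.4, 12.4 and 3.49 in acLDL-high cells. Each acLDL-high library exceeded its partner, but replicate 3 of both groups was far below the others, so the groups overlapped. The log2 fold change of 0.31 ± 0.10 (SE) was the largest estimate of the 10 and missed the threshold (edgeR adjusted p = 0.104). It passed without replicate 2 (0.40, adjusted p = 0.0135) and with no filter on low counts (0.32, adjusted p = 0.024), and was 0.14 (adjusted p = 0.568) without replicate 1.

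The EphB receptors Ephb2, Ephb3 and Ephb4 were each lower in acLDL-high cells on all 3 occasions, by small amounts that missed the threshold after adjustment. Ephb4 (ENSMUSG00000029710, chr5:137350109-137378669, plus strand), the receptor of ephrin-B2, had a CPM of 154, 137 and 189 in acLDL-low and 142, 127 and 173 in acLDL-high cells. The occasions differed more than the groups, which overlapped, but the 3 pairs gave nearly the same difference of -0.12, -0.11 and -0.13. This gave a log2 fold change of -0.12 ± 0.04 (SE, 95% CI -0.21 to -0.03, edgeR adjusted p = 0.119). Ephb4 shares 33 exonic bases, 0.711% of its exons, with Zan on the opposite strand, which was lower in acLDL-high cells (-0.49, edgeR adjusted p = 0.0223) at 1.75 to 5.85 CPM.

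Ephb3 (ENSMUSG00000005958, chr16:21204755-21223305, plus strand), known with EphB2 for positioning cells in the intestinal crypt, had a CPM of 8.67, 9.14 and 9.87 in acLDL-low and 7.33, 8.09 and 8.16 in acLDL-high cells. The groups did not overlap. Ephb3 had a log2 fold change of -0.23 ± 0.08 (SE, 95% CI -0.40 to -0.06, edgeR adjusted p = 0.122).

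Ephb2 (ENSMUSG00000028664, chr4:136647539-136835988, minus strand) had a CPM of 89.8, 113 and 112 in acLDL-low and 85.1, 107 and 103 in acLDL-high cells. Replicate 1 was lowest in both groups and the groups overlapped. The log2 fold change was -0.09 ± 0.04 (SE, 95% CI -0.18 to -0.004, edgeR adjusted p = 0.236).

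Ephb6 (ENSMUSG00000029869, chr6:41605482-41620509, plus strand) encodes a receptor whose kinase domain is inactive. Its CPM was 12.0, 3.29 and 8.33 in acLDL-low and 12.7, 4.27 and 8.61 in acLDL-high cells. Replicate 2 was the lowest and replicate 1 the highest of both groups, which overlapped. The log2 fold change was 0.15 (95% CI -0.04 to 0.34, edgeR adjusted p = 0.402), with all 3 pairs positive and that of occasion 2 the largest at 0.37.

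**Figure D2:**
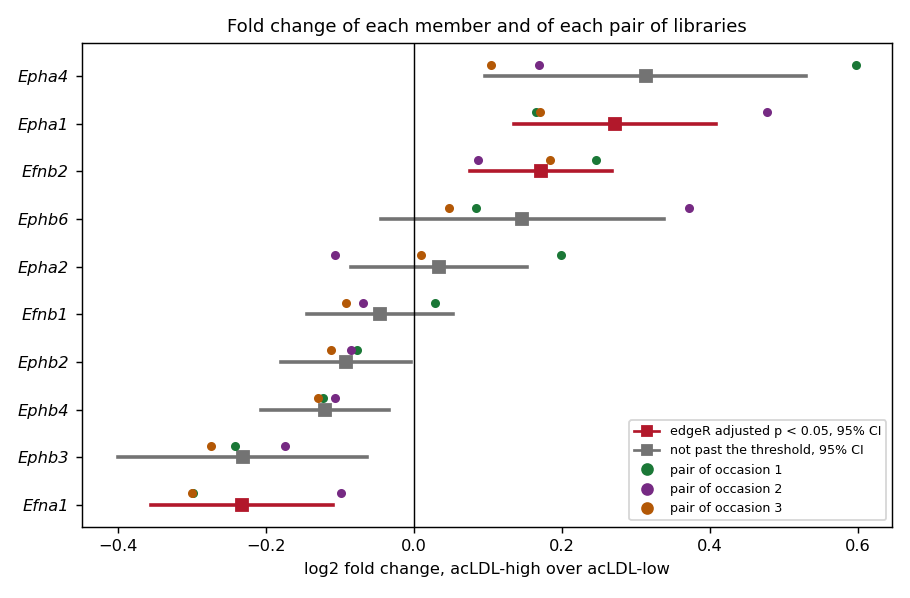
Log2 fold change of acLDL-high over acLDL-low cells (horizontal axis), with squares and bars for the edgeR estimate and its 95% confidence interval, in red for an adjusted p under 0.05, and dots for the 3 pairs of libraries. All 3 dots lie to the right of 0 for Efnb2, Epha1, Epha4 and Ephb6 and to the left for Efna1, Ephb2, Ephb3 and Ephb4. Epha2 and Efnb1 have dots on both sides.

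Ligands and receptors known to bind each other were also set side by side. Per length, Efnb2 stood at 0.794 of the level of Ephb4 in acLDL-low and 0.971 in acLDL-high cells, and their log2 ratio was higher in acLDL-high cells by 0.37, 0.19 and 0.31 in the 3 pairs. The order depends on the length used: with the longest transcript in place of merged exons the ratio was 1.06 and 1.30, and its changes are the same on either length. The level of Efna1 was 2.15 times that of Epha1 in acLDL-low and 1.52 times in acLDL-high cells, with changes in the log2 ratio of -0.46, -0.58 and -0.47. The log2 ratio of Efna1 to Epha2 changed by -0.50, 0.01 and -0.31. These ratios were formed from the values above after their directions were known and have no test of their own.

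Levels of different genes were compared as CPM per kilobase of merged exons. Epha2 was highest at 148 ± 20.5 (mean and SD of 6 libraries), followed by Ephb4 at 33.1 ± 5.05 and Efnb2 at 28.8 ± 2.02. Efna1 had 15.2 ± 2.08 and Efnb1 15.2 ± 3.57, then came Epha1 at 8.43 ± 1.07 and Ephb2 at 8.07 ± 0.928. Ephb6 at 2.18 ± 1.03, Ephb3 at 1.29 ± 0.134 and Epha4 at 1.08 ± 0.55 were the lowest.

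The ranges over the 6 libraries overlapped for some neighbors in this order and not for others. Epha2 was above all others, its lowest library at 3.13 times the highest of Ephb4. The ranges of Ephb4 and Efnb2 overlapped, as did those of Efna1 and Efnb1, those of Epha1 and Ephb2, and those of Ephb6, Ephb3 and Epha4 from each to the next. The ranges of Efnb1 and Epha1 were apart by a factor of 1.03. With the longest transcript as the length those ranges overlapped, and Efnb2, at 41.2, came before Ephb4, at 35.4, again with overlapping ranges.

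Epha2 made up 66.7% to 76.4% of the summed level per length of the 11 Eph receptors in the table, and Ephb4 12.5% to 21.3%. Efnb2 made up 33.2% to 44.9% of the 8 ephrins, Efnb1 15.5% to 24.1% and Efna1 17.2% to 23.0%. These cells thus carried mainly EphA2 transcripts among the receptors in every library, and a mix of ephrin-B2, ephrin-B1, ephrin-A1 and ephrin-A5 transcripts among the ligands, the last with 13.1% to 16.3%.

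**Figure D3:**
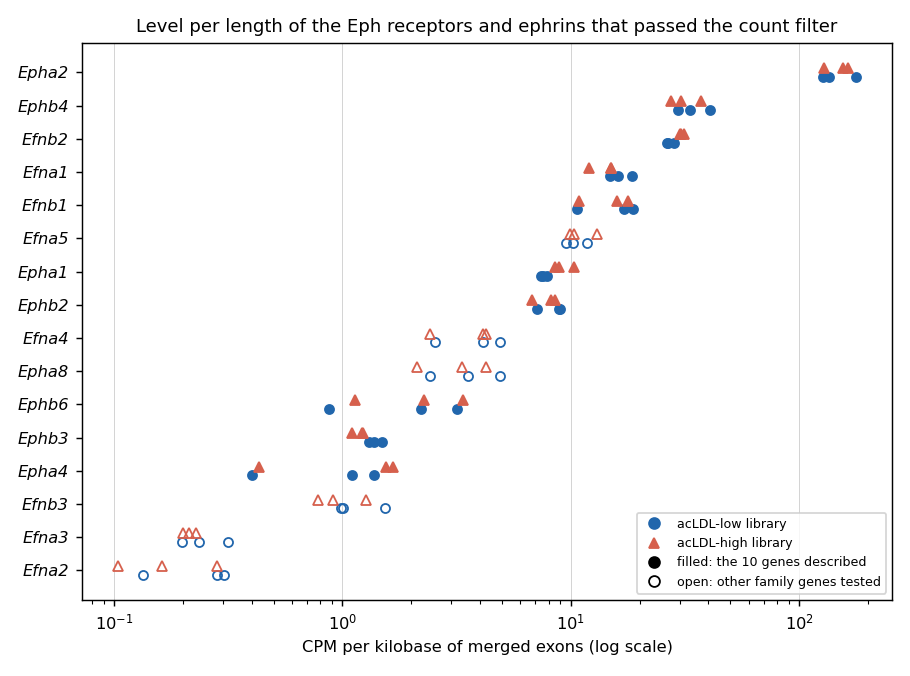
CPM per kilobase of merged exons (log scale) of the 16 Eph and ephrin genes that passed the count filter, with 1 symbol per library, circles for acLDL-low and triangles for acLDL-high, filled for the 10 genes described and open for the other 6. Epha2 stands apart at the top, and the spread over libraries is widest for Epha4 and Ephb6.

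Among the 12 other family members, none passed the test. Epha3, Epha5 and Epha7, receptors of ephrin-As, had 0 counts in all 6 libraries, and Epha6, Epha10 and Ephb1 had at most 3 counts in any library, so transcripts of these 6 were at or under the floor. Epha8, at a mean of 3.44 CPM per kilobase and with a range that overlapped that of Ephb6, had a log2 fold change of -0.16 (edgeR adjusted p = 0.183) with all 3 pairs negative. Efna5 was the strongest of the other ephrins at 10.8 CPM per kilobase, with a log2 fold change of 0.07. The log2 fold changes of Efna2, Efna3, Efna4 and Efnb3 were -0.41, -0.22, -0.09 and -0.25, with edgeR adjusted p of 0.502, 0.708, 0.643 and 0.247. Efna2 and Efna3 had fewer than 60 counts in each library, and differences of this size were not detectable at that depth.

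The occasions differed more than the groups for 7 of the 10 genes, in which the range of the 3 occasion means exceeded every pair difference, against 83.7% of all genes tested. On the log2 scale the occasion means of Epha4 spanned 1.79, a 3.47-fold range with occasion 2 highest and occasion 3 lowest. Ephb6 spanned 1.72, a 3.28-fold range with occasion 1 highest and occasion 2 lowest, and Efnb1 0.77, with occasion 2 highest and occasion 1 lowest.

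The 3 exceptions were Efnb2, Epha1 and Ephb3, with ranges of 0.03, 0.12 and 0.17. Their groups did not overlap, and without overlap the range cannot exceed every pair difference, so the match follows from the measures. The median range was 0.373 for the 10 genes and 0.453 for all genes. Each occasion is 1 culture, so a difference between occasions has no replicate.

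**Figure D4:**
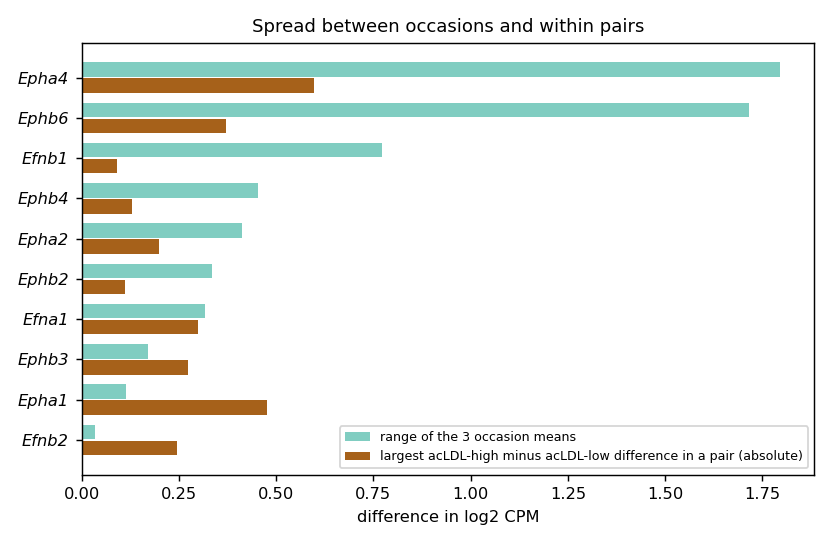
Range of the 3 occasion means and largest absolute difference between acLDL-high and acLDL-low within a pair, both in log2 CPM, as bars from 0 for each gene. The occasion range is the longer bar for 7 genes and the shorter for Efnb2, Epha1 and Ephb3.

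Beyond receptors and ephrins, 59 genes of Eph and ephrin signaling were listed, of which 54 were tested, and 2 were higher, 1 was lower and 51 did not pass. The 5.56% that passed is near the 4.75% of all genes tested. Their median log2 fold change was 0.02. Mmp9, a secreted gelatinase listed among proteases that cleave Ephs or ephrins, had a CPM of 43.4, 50.3 and 187 in acLDL-low and 59.3, 69.7 and 232 in acLDL-high cells. It rose by 0.41 ± 0.05 (log2, SE, edgeR adjusted p = 0.000311), in all 3 pairs, although replicate 3 was far above the others in both groups.

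Sh2d3c, an SH2 domain adaptor that binds Eph receptors, rose by 0.27 ± 0.07 (log2, SE, edgeR adjusted p = 0.0499) in all 3 pairs and lay at 4.18 to 24.3 CPM. This call was lost with limma-voom, with DESeq2, with 10 counts required in every library and without any 1 of the 3 replicates. Grb7, an SH2 domain adaptor of receptor tyrosine kinases, fell by 0.25 ± 0.06 (log2, SE, edgeR adjusted p = 0.0249) in all 3 pairs, at 15.3 to 31.0 CPM. The call of Grb7 was lost with DESeq2 and without replicate 3.

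The lists differed little in their medians. Of 15 exchange factors and GTPase-activating proteins tested, none passed (median 0.05), with Rasa1, a Ras GTPase-activating protein, at the highest level, 23.8 CPM per kilobase. Of 19 adaptors and cytoplasmic kinases, 1 was higher and 1 lower (median -0.02), with the adaptor Crk highest at 38.4. Of 8 partners of ephrin-Bs none passed (median -0.03), with the PDZ protein gene Sdcbp highest at 25.0, and Grip2 had 0 counts in all libraries. Of 7 proteases 1 was higher (median 0.05), with Mmp14 highest at 48.7, and of 5 phosphatases none passed (median 0.04), with Ptpn11, which encodes SHP2, highest at 29.3. At an unadjusted p under 0.05 there were 12 of the 54 genes, or 22.2%, near the 19.4% of all genes tested.

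**Figure D5:**
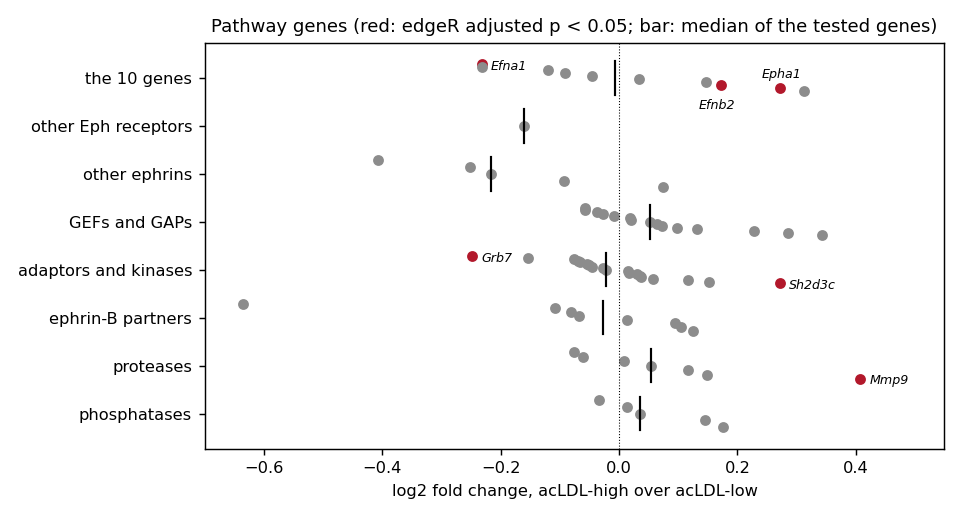
Log2 fold change of acLDL-high over acLDL-low cells for the tested genes of each list (1 dot per gene, red for an edgeR adjusted p under 0.05, bar for the list's median). The medians of the 5 signaling lists lie between -0.03 and 0.05, and Mmp9, Sh2d3c and Grb7 are the red dots outside the 10 genes described.

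The genes with the most similar pattern to each changed gene were found by Pearson's r of log2 CPM over the 6 libraries, among 10537 genes with an average log2 CPM of at least 1. For Epha1 they were Kifc5b (r = 0.972), a kinesin gene with near-identical copies so that its counts are uncertain, and Arhgap11a (r = 0.962), and 15 genes had an r over 0.9. For Efna1 they were Zbtb12 (r = 0.980) and Tmem74 (r = 0.976), with 56 genes over 0.9, and for Efnb2 they were Litaf (r = 0.947) and Map2k4 (r = 0.946), with 13. With 6 libraries that share occasion and group, these r values describe likeness only.

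Genes of the G2 and M phases of the cell cycle moved with the groups. In acLDL-high cells 16 of 24 were higher, against 3.43% of all genes tested, and none was lower. The median log2 fold change of the 24 was 0.28, and their summed CPM was 3484 to 4330 in acLDL-low and 4333 to 5335 in acLDL-high libraries. By occasion their median difference was 0.15, 0.40 and 0.28. The differences were 0.17, 0.48 and 0.17 for Epha1, 0.25, 0.09 and 0.18 for Efnb2, and -0.30, -0.10 and -0.30 for Efna1. The part of these cell cycle genes in the results for Epha1, Efnb2 and Efna1 was not tested. In bulk libraries, fewer cells with a transcript and less of it per cell cannot be told apart.

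The label of carcinoma cells was checked against markers. Here a gene is above 1 CPM if its mean over the 6 libraries is, so single libraries can differ. All 8 epithelial carcinoma markers were above 1 CPM, with Krt18 highest, and Cldn4 and Cldn7, both tight junction genes, were higher in acLDL-high cells (0.53 and 0.30, edgeR adjusted p = 0.000832 and 0.0102). Of 10 endothelial markers, Emcn, Erg and Cldn5 had 0 counts, Tie1 alone was above 1 CPM, and their summed CPM was 1.96 to 3.18 in acLDL-low and 1.80 to 2.64 in acLDL-high libraries. Of 11 macrophage markers, Adgre1, C1qa and C1qb had 0 counts, and Cd68, Cd14 and Mrc1 were above 1 CPM. Cd14 was higher (0.32, edgeR adjusted p = 0.0246), Cd68, at the highest level per length of these markers, had a log2 fold change of -0.28 (edgeR adjusted p = 0.201), Mrc1 had 0.30 (edgeR adjusted p = 0.38), and the summed CPM of the list was 19.2 to 21.6 and 20.1 to 24.4. Of 8 fibroblast markers, Lum, Col3a1 and Thy1 had 0 counts, Pdgfra alone was above 1 CPM, and the sums were 29.0 to 41.1 and 29.8 to 43.3.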

How the data were processed

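Polyadenylated RNA of 3 acLDL-low and 3 acLDL-high 4T1-T sorts was sequenced with a stranded kit. Per the labels, the authors aligned reads to mm10 with STAR (2.5.2a), counted them with featureCounts (1.4.3-p1) and deposited the raw counts of 53379 gene IDs in each library, without normalization. Annotation release and strand setting are not given in the sources used here. The authors' DESeq2 (1.20.0) table, with log2 fold changes and p-values, served only to pair gene IDs with symbols and to define protein-coding genes.

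Counts were tested with edgeR (4.0.16, R 4.3.3), using filterByExpr, TMM scaling, a blocked quasi-likelihood test (block: replicate number) and Benjamini-Hochberg adjustment at 0.05. Each SE was derived from the estimate and its F statistic. For differences within pairs, a prior count of 2 was added before taking log2 CPM. The numbers pair the samples: deviations from the group means correlated at 0.795, 0.846 and 0.799 for equal numbers and at -0.557 to -0.0882 for others. The labels name separate occasions but not separate thaws of the cells, so p-values measure the spread between these sorts. Within each group no libraries were near-duplicates, and libraries of different groups were not compared in this way.

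Positions and lengths follow GENCODE M21 (GRCm38, the same assembly as mm10). Named genes are the 10 members and all other family genes. From each pathway list they are the changed gene or genes and the one at the highest level. Also named are 2 most similar genes per changed member, and markers of other cell types at 0 or with a mean above 1 CPM. Cldn4, Cldn7, Krt18, Zyx and Zan were named after their values were seen. Members and lists were chosen with earlier results of these data known. Alternatives were no block, DESeq2 size factors, DESeq2 (1.42.0), limma-voom (3.58.1), other filters, all genes, leaving out each replicate, a threshold of 0.01, another gene length and another prior count. The code was tested on simulated data.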

Additional observations from a re-analysis of the deposited data

How the results depend on the processing

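For the 3 called genes, 10 of 30 values under the alternatives lost the call and 20 kept it. For the other 7 genes, 67 of 70 values kept their direction and stayed short of the threshold, 2 passed it (both Epha4) and 1 reversed, Epha2, whose log2 fold change ran from -0.048 (without replicate 1) to 0.10 when each replicate was left out. Without the replicate block, 0 of 12329 genes passed in edgeR (45 at an unadjusted p under 0.05), so 0 of the 10 genes (1 at an unadjusted p under 0.05, with log2 fold changes of 0.28 for Epha1, -0.23 for Efna1 and 0.18 for Efnb2) and 0 other pathway genes passed, and no other tool was run without it. The calls therefore rest on the pairing. Leaving out each replicate gave 126 to 869 genes, beside 597, with 126 without replicate 3, 0 to 3 of the 10 genes, with 0 without replicate 3 (5 at an unadjusted p under 0.05) and 1 without replicate 1, and 1 to 5 other pathway genes, beside 3. With no filter on low counts, 932 genes and 5 other pathway genes passed. At an adjusted p under 0.01 there were 199 genes, 0 of the 10 and 1 other pathway gene, Mmp9, and DESeq2 with the block also called 1, Mmp9. With the longest transcript as the length, Epha1 had 10.1, Epha2 176.5, Ephb2 9.33, Ephb3 1.80 and Efnb2 41.2 CPM per kilobase. The scaling by DESeq2 size factors moved the median of all genes by 0.00298. The 10 genes had at least 227 counts in every library, and the parts of counting error and of spread between pairs in their SE were not separated. The longest transcript as the length for ratios was added after seeing the data.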

Other observations

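Efna1, Efna3 and Efna4 lie next to each other on the minus strand of chromosome 3, within 66.3 kb (GRCm38). Their levels per length were far apart, at 15.2, 0.231 and 3.72 CPM per kilobase, and their log2 fold changes were -0.23, -0.22 and -0.09. Of the 3 neighbors Efna1 passed the test, and a difference between their fold changes was not tested.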
